A study of Mus musculus with 12 samples.

Results

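The 34 genes described here are known for their work in germ cells and in meiosis, and were followed through RNA sequencing of mouse embryonic stem cells. They were chosen by name, with earlier results of these data known, and all 34 were found among the 22753 genes of the deposited count table. By role they comprised 6 regulators of the germ line, 6 parts of the synaptonemal complex or meiotic chromosome axis, 3 meiotic cohesins, 5 genes of meiotic recombination, 10 genes of the piRNA pathway and transposon silencing, and 4 other genes of the germ line or testis.

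The cells came from clones 4 and 10 and were labelled as lacking Sphk2 in every library, the controls included. Sphk1 and Sphk2 encode the sphingosine kinases, which make sphingosine 1-phosphate. All cells received 4-hydroxytamoxifen at 6 uM over 48 hours before a sort on Cre-GFP fluorescence. GFP-positive cells of clone 10 and of clone 4, the labelled Sphk1-/- Sphk2-/- cells, were compared with GFP-negative cells of the same clone, the labelled Sphk1fl/fl Sphk2-/- cells, with 3 libraries in each of the 4 groups. Each clone is a single line, no library came from cells with Sphk2, and the labels do not name the promoter of the Cre. A pair here is the GFP-positive and the GFP-negative library with one replicate number of a clone. Labelled passages ran from 11 to 20, and 5 of 6 pairs had the GFP-positive cells 1 passage above the GFP-negative ones. Because the labels leave it unsaid whether replicates were separate cultures, p-values speak of the variation among these libraries, some of it possibly technical.

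Germ cells switch on genes that other cells keep silent. Meiotic cells build the synaptonemal complex between homologous chromosomes, hold sister chromatids with cohesins of their own and repair programmed DNA breaks by recombination. The piRNA pathway uses small RNAs and Piwi proteins to silence transposons in the germ line. In mouse embryonic stem cells many of these genes are held down by DNA methylation and by a Polycomb complex that reaches their promoters through the E2F6-DP1 and MGA-MAX factors, which bind the E2F core motif TCCCGC and the E-box CACGTG.

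Library depth lay between 12968916 counts, in clone 10 GFP-negative replicate 1, and 34258395. Sphk1 stood at 0.889, 1.14 and 3.01 CPM (counts scaled to a common library total) in GFP-positive and 0.694, 1.41 and 4.30 CPM in GFP-negative replicates 1 to 3 of clone 10. In clone 4 it stood at 2.02, 1.07 and 0.701 CPM in GFP-positive and 1.96, 3.02 and 1.78 CPM in GFP-negative cells. Its log2 change over both clones within pairs was -0.61 (SE 0.25, adjusted p = 0.166), and that of Sphk2 was 0.12 (SE 0.22). Reads from exons outside the deleted parts would count toward these totals, so they do not check the labels. The cells carried embryonic stem cell markers, with all 12 detected in each group and Pou5f1 at 944 to 2941 CPM, and markers of later germ cells summed to 6.35 to 15.1 CPM with Prm2 at 0 counts in every library. Genes of the 2-cell-like state, a rare state of embryonic stem cells with genes of the 2-cell embryo, summed to 4533, 964 and 3007 CPM in GFP-positive and 205, 109.7 and 96.6 CPM in GFP-negative cells of clone 10. In clone 4 they summed to 316, 42.2 and 32.3 CPM in GFP-positive and 21.02, 5.16 and 8.90 CPM in GFP-negative cells. All 17 of them that the count table holds were detected in each GFP-positive group.

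The start sites of the germline genes are shown first, because motifs of known repressors can be read in some of them. RefSeq (GRCm38.p6) gave 35 promoter windows, from 250 bases before to 50 after a transcript start, for 30 of the 34 genes, and Spo11, Tex11, Tex15 and Piwil2 had no entry. Slc25a31 (chr3:40708621-40708920, plus strand) and Sycp1 (chr3:102936051-102936350, minus strand), both called in the comparisons that follow, held both motifs. Taf7l (chrX:134476441-134476740, minus strand) held the E-box, Rpl10l (chr12:66284352-66284651, minus strand) and Smc1b (chr15:85131908-85132207, minus strand) held the E2F core, and Dazl (chr17:50293571-50293870, minus strand) held neither. Each window is written 5′ to 3′ in the direction of the gene, with a motif match in capitals.
Slc25a31: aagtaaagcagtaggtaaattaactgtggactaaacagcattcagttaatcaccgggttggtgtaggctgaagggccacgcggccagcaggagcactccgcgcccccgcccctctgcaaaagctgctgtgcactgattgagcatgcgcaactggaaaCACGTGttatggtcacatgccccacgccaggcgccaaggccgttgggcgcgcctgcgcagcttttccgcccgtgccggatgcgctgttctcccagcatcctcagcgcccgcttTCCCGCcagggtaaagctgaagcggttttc
Sycp1: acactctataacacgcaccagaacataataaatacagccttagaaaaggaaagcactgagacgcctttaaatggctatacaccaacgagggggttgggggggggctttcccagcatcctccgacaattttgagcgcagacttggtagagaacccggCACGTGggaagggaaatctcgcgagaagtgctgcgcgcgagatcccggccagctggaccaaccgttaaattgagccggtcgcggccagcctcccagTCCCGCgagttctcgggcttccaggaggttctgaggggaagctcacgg
Taf7l: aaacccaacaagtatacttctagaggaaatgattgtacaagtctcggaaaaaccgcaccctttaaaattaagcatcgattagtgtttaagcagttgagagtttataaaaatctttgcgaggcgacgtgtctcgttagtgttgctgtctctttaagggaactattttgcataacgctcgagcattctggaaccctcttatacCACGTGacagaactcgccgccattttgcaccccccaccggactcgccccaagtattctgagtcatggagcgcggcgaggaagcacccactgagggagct
Rpl10l: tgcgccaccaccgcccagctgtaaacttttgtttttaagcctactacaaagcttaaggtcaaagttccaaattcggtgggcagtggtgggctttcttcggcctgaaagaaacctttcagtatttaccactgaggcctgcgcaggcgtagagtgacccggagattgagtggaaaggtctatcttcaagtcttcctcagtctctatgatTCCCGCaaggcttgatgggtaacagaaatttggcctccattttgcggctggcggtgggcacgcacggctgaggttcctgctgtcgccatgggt
Smc1b: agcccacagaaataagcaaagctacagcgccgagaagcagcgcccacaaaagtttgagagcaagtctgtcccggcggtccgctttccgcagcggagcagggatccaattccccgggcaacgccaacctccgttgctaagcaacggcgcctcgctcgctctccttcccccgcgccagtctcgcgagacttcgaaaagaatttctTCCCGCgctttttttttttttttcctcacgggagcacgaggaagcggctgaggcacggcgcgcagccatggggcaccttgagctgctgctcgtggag
Dazl: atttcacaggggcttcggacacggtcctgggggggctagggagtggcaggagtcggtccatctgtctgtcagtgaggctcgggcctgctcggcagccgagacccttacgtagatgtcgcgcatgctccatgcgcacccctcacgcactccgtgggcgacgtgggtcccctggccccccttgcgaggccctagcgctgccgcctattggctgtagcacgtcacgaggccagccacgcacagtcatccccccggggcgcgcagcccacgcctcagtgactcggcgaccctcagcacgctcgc

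The E-box CACGTG lay in 17 of the 35 windows of these genes (48.6%), and in 7.15% of all 32851 windows of the table. The E2F core TCCCGC, searched on both strands, lay in 16 of 35 (45.7%), and in 20.0% of all windows. Both motifs together lay in 9 of 35 (25.7%), and in 1.99% of all windows. The motifs do not overlap each other in sequence. The windows of these genes held a median of 20 CG dinucleotides (3 to 38), against 14 over windows of all genes in the count table, of which 8.0% held the E-box and 26.5% the E2F core. Among the 9 germline genes called by edgeR in any comparison, 5 windows held the E2F core, 3 the E-box and 2 both. A match describes the letters and does not show that a factor binds there.

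**Figure D1:**
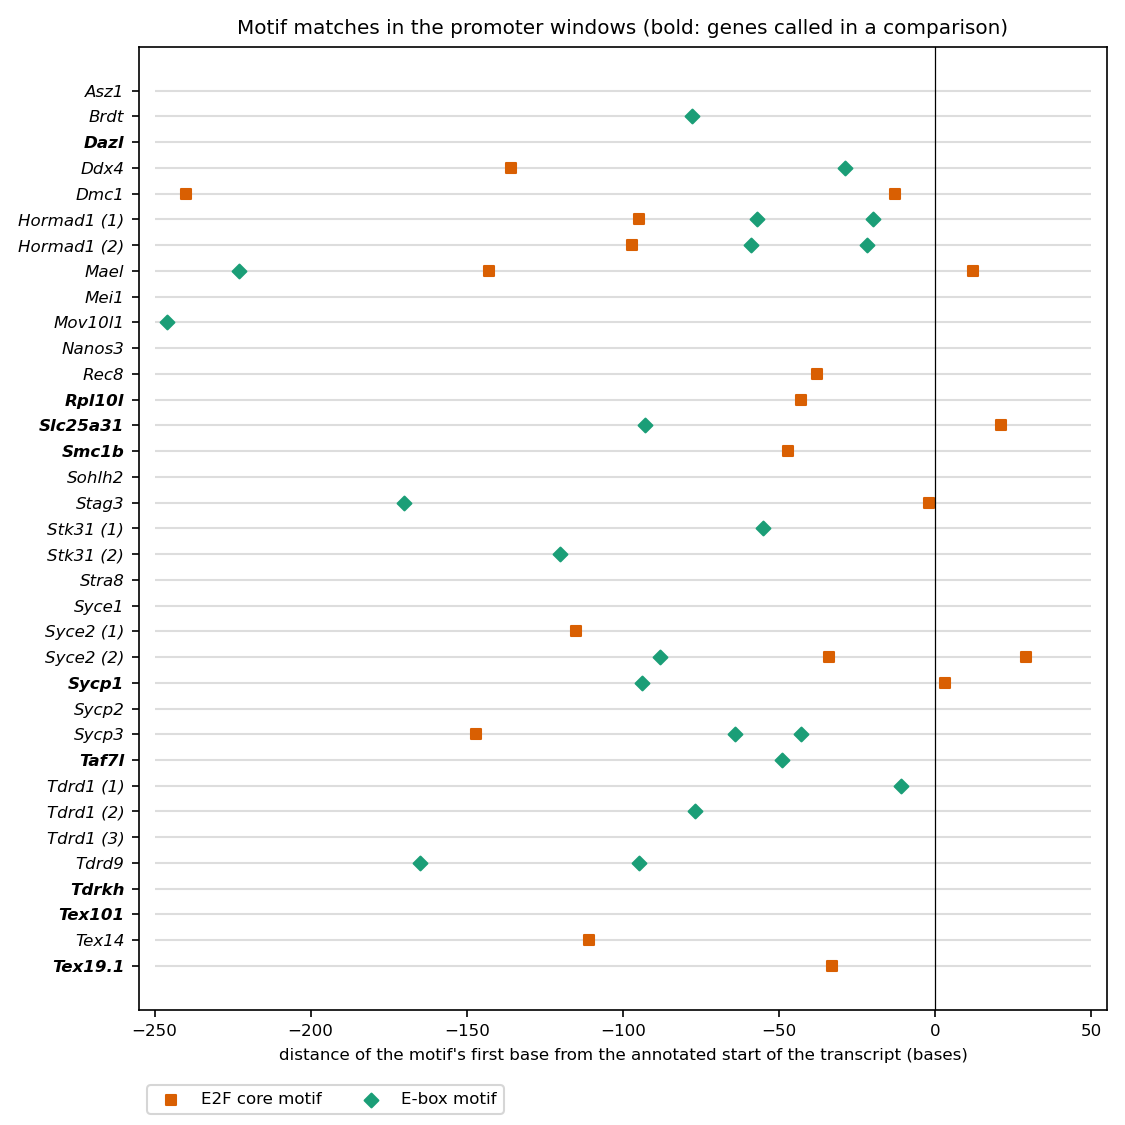
Matches to the E2F core (squares) and the E-box (diamonds) in the 35 promoter windows of 30 germline genes, by distance of the first base of the match from the transcript start in bases; a number in brackets marks further windows of the same gene, and bold names are genes called in a comparison. Most matches lie upstream of the start. Of the 9 windows of genes called by edgeR, 3, those of Dazl, Tdrkh and Tex101, hold neither motif.

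Most of the 34 genes were transcribed at a measurable level in these embryonic stem cells. On the RPKM scale, CPM divided by exon length in kilobases, a scale that allows genes to be compared, 27 had a median over the 12 libraries of at least 1, and 7 were under 1. Tex19.1 led with a median of 88.6 RPKM (26.7 to 159), followed by Syce2 at 32.7 and Rpl10l at 20.6. The 7 low genes were Tdrd1, Tex101, Sycp2, Tdrd9, Asz1, Mei1 and Spo11. The ranges of Syce2 (18.1 to 63.0 RPKM) and Rpl10l (11.0 to 86.4 RPKM) overlapped, so the order of these neighbours is within the spread over libraries.

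**Figure D2:**
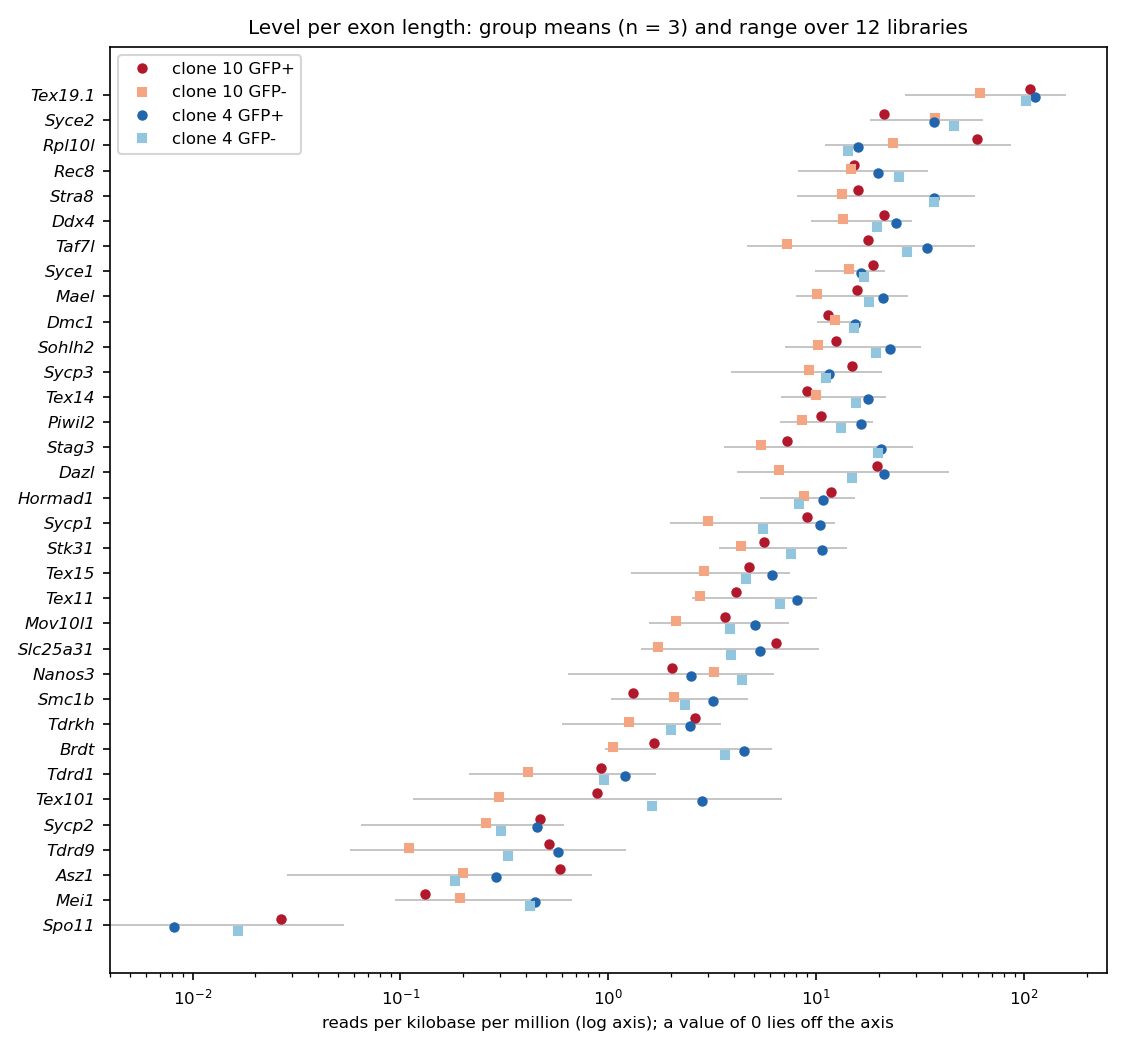
Level of each of the 34 germline genes in RPKM on a log axis, in order of the median; points are means of 3 libraries for clone 10 GFP-positive, clone 10 GFP-negative, clone 4 GFP-positive and clone 4 GFP-negative cells, and grey lines the range over the 12 libraries. Tex19.1 lies highest, and Spo11 lies lowest, with 0 counts in every clone 10 GFP-negative library.

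GFP-positive cells of clone 10 had higher levels of germline genes from several roles within pairs: the RNA-binding protein gene Dazl, the general transcription factor gene Taf7l, the synaptonemal complex gene Sycp1, the piRNA gene Tdrkh, Tex19.1, the ADP/ATP carrier gene Slc25a31 and the ribosomal protein gene Rpl10l. Smc1b, a meiotic cohesin, was lower. Of the 33 germline genes tested, 7 rose and 1 fell in clone 10 by edgeR's quasi-likelihood test within pairs at an adjusted p under 0.05, where 4.22% of all 15179 genes tested were called and 3.49% were called higher. In clone 4 within pairs 0 of 33 passed, though 8 (24.2%) had an unadjusted p under 0.05, against 7.42% of all genes, of which 0.119% were called. DESeq2 with the replicate block called 1 germline gene there, Sycp1, where it called 1.19% of all genes. It called 14 in clone 10 and 15 over both clones, where it called 10.1% and 9.41% of all genes. Those that edgeR did not call in clone 10 were Mael, Mov10l1, Tdrd1, Tdrd9 and Tex101, higher, and Syce2, lower. Over both clones they were Ddx4, Mael, Mov10l1, Stk31, Tdrd9, Tdrkh and Tex11, higher, and Syce2, lower. Over the mean of both clones edgeR called 7 higher and 0 lower within pairs: Dazl, Taf7l, Sycp1, Tex19.1, Tex101, Slc25a31 and Rpl10l. Of all genes 3.36% were called there and 2.51% were called higher. This comparison uses the same libraries as those of the single clones. Whether more cells turned a gene on or each cell made more RNA cannot be told apart in bulk libraries.

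The same comparisons across all libraries, without the pairing, formed the planned main fit. It called 0 germline genes in clone 10, in clone 4 and over both clones. The unadjusted p was under 0.05 for 6 of them in clone 10 (18.2%, against 7.45% of all genes), for 1 in clone 4 (3.03%, against 1.38%) and for 8 over both (24.2%, against 6.77%). There 0% of all genes were called in each clone and 0.158% over both. DESeq2 called Sycp1 alone in clone 10, where it called 1.69% of all genes, and Sycp1 alone over both clones, where it called 1.7%. In clone 4 it called 0 germline genes and 0.186% of all genes.

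The number of calls within pairs depended on which pairs were in the fit. The share of all genes called in these fits is not given here. A change in the counts is therefore no result about the germline genes alone. Without clone 10 replicate 3 the 8 calls in clone 10 and the 7 over both clones became 0. Without clone 10 replicate 1 there were 7 and 10, and without clone 10 replicate 2 there were 6 and 8. Over both clones 0 were also left when clone 4 replicate 1 was dropped, 4 when replicate 2 was and 2 when replicate 3 was. In clone 10, dropping clone 4 replicates 1, 2 or 3 left 6, 5 and 5. In clone 10, Dazl, Taf7l, Sycp1, Slc25a31 and Rpl10l were each called in 5 of these 6 fits. Tex19.1 was called in 2, Tdrkh in 1 and Smc1b in 0. Fits without a clone 4 pair kept all libraries of clone 10, so they say little about changes in that clone. Without clone 10 replicate 3 all of these calls were lost. Over the 6 fits the changes in clone 10 kept their sign. That of Dazl ran from 1.01 to 1.55, that of Sycp1 from 1.24 to 1.92 and that of Slc25a31 from 1.33 to 1.88.

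The direction was shared more widely than the calls. Within pairs, 26 of the 33 log2 changes were above 0 in clone 10 (median 0.48) and 28 in clone 4 (median 0.28), beside 49.0% and 50.8% of all genes with medians of -0.0097 and 0.0044. In single pairs 25, 28 and 27 of the 33 were higher in the GFP-positive library of clone 10 replicates 1 to 3, and 25, 26 and 23 in clone 4. Of all genes tested, 46.4% to 53.3% were higher in a pair. Of the 33, 17 (51.5%) were higher in all 6 pairs on effective library sizes, against 8.71% of all genes tested, and the 4 higher in 1 pair were Nanos3, Syce2, Mei1 and Dmc1. The genes were chosen with earlier results of these data known, so these shares describe the list and do not test it. Among other meiosis and piRNA genes, 55.6% and 57.1% of changes were above 0 in clone 10 within pairs. The shares in clone 4 were 63% and 57.1%. Summed over the 34 genes, levels were 1269, 817 and 1004 CPM in GFP-positive and 766, 659 and 712 CPM in GFP-negative cells of clone 10. In clone 4 the sums were 1740.5, 1374 and 1077 CPM in GFP-positive and 1411, 1270.1 and 1022 CPM in GFP-negative cells. The GFP-positive sum was higher in each of the 6 pairs, while the libraries of clone 4 overlapped between the gates and those of clone 10 did not.

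**Figure D3:**
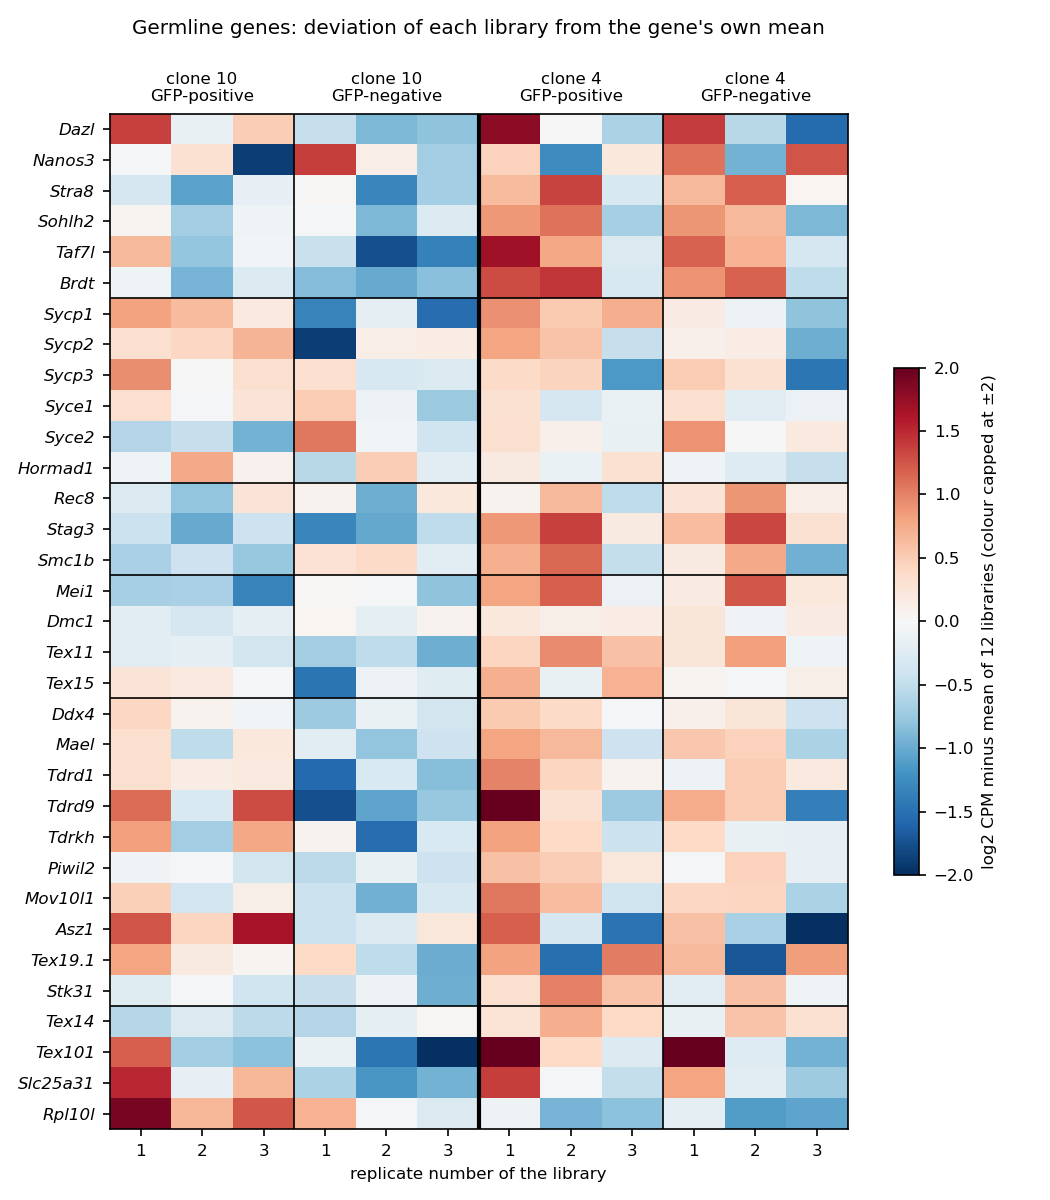
Deviation of each library's log2 CPM from the gene's own mean over 12 libraries, for the 33 tested germline genes in blocks by role (regulators, synaptonemal complex, cohesins, recombination, piRNA and transposon silencing, others); the scale is capped at 2. Clone 4 GFP-positive replicate 1 has the most genes above their own mean, 32 of 33, and clone 10 GFP-negative replicate 2 the fewest, 4 of 33.

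**Figure D4:**
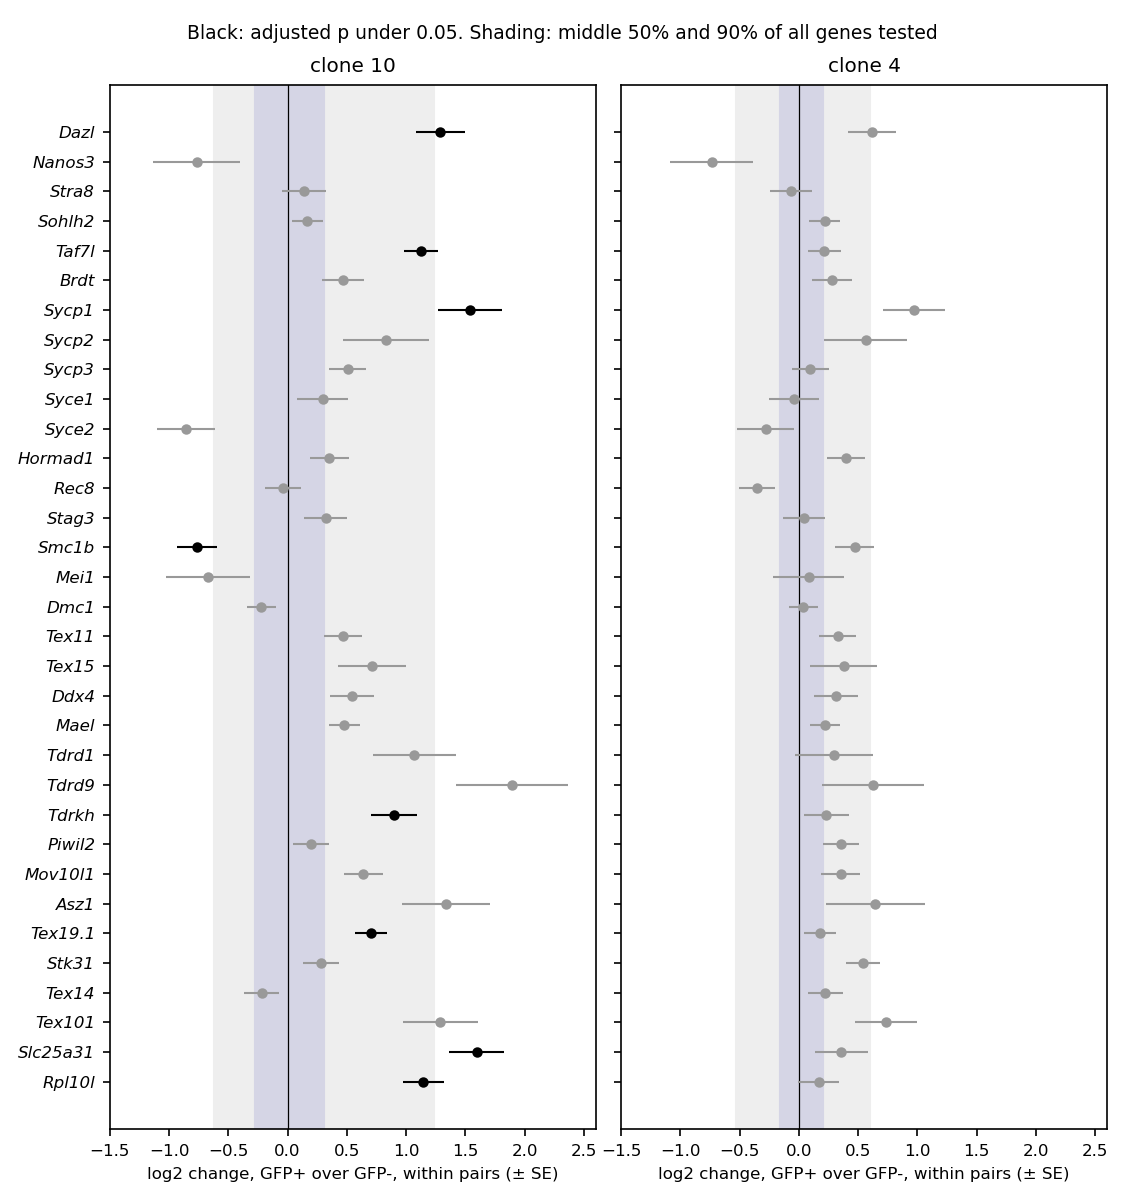
Log2 change of GFP-positive over GFP-negative cells within pairs, with SE, for the 33 tested germline genes in clone 10 and clone 4; black points are called, and shading marks the middle 50% and 90% of all 15179 genes. In clone 10 the 7 called rises lie between 0.70 and 1.59, and the called fall, Smc1b, at -0.76.

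Other measures moved with the gate. In each pair the share of counts in mitochondrial genes was higher in GFP-positive cells, at 0.849, 2.32 and 1.22% against 0.143, 2.11 and 1.03% in clone 10 and 0.851, 0.896 and 2.21% against 0.594, 0.845 and 1.43% in clone 4. All 19 fibroblast markers were detected in each group, and their summed level was 211, 237 and 611 CPM in GFP-positive and 90.5, 394 and 1070.3 CPM in GFP-negative cells of clone 10. In clone 4 it was 154, 337 and 185 CPM in GFP-positive and 208, 702 and 447 CPM in GFP-negative cells, so that GFP-positive cells were lower in every pair of that clone. The part of these measures and of the 2-cell-like genes in the germline results was not tested. With passage as a covariate across all libraries, 26 of the 33 changes were above 0 in clone 10 (median 0.57) and 30 in clone 4 (median 0.33), against 26 (median 0.52) and 29 (median 0.30) without it, and 0 were called in either fit. Passage was not fitted within pairs, and a covariate from labels of uncertain accuracy may not adjust for the true passage.

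Among the regulators, Dazl and Taf7l rose in clone 10 within pairs. Dazl (ENSMUSG00000010592, mm10 chromosome 17, 50279394 to 50293599, minus strand), an RNA-binding protein that germ cells need, measured 119, 38.3 and 66.3 CPM in GFP-positive replicates 1 to 3 of clone 10, against 26.99, 22.4 and 26.5 CPM in GFP-negative ones. In clone 4 it measured 166, 47.3 and 27.9 CPM in GFP-positive and 121, 32.8 and 15.8 CPM in GFP-negative cells. The gates did not overlap in clone 10, and in clone 4 they overlapped, with replicate 1 the highest in both. The log2 change within pairs was 1.29 (SE 0.21, adjusted p = 0.0131) in clone 10, 0.61 (SE 0.20) in clone 4 and 0.95 (SE 0.14, adjusted p = 0.0122) over both, higher in 6 of 6 pairs. Across all libraries the values were 1.42 (SE 0.74) in clone 10 and 0.48 (SE 0.73) in clone 4, neither called.

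Taf7l (ENSMUSG00000009596, mm10 chromosome X, 134460118 to 134476490, minus strand), a germ cell relative of a TFIID subunit, measured 60.6, 20.8 and 38.4 CPM in GFP-positive and 23.1, 10.4 and 15.2 CPM in GFP-negative cells of clone 10. The clone 4 values were 130.2, 68.5 and 29.7 CPM in GFP-positive and 87.5, 66.1 and 30.4 CPM in GFP-negative cells. The GFP-positive library was higher in each pair of clone 10, but the pairs lay at different levels, so the gates overlapped. In clone 4 the gates overlapped too, and replicate 1 had the largest difference. Within pairs the log2 change was 1.13 (SE 0.15, adjusted p = 0.00429) in clone 10, 0.21 (SE 0.14) in clone 4 and 0.67 (SE 0.10, adjusted p = 0.0108) over both. Across all libraries it was 1.14 (SE 0.55) in clone 10 and 0.30 (SE 0.54) in clone 4.

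The other 4 regulators were not called. They were Stra8, which germ cells need to enter meiosis, Sohlh2, a transcription factor of early gametogenesis, Brdt, a testis bromodomain protein, and Nanos3, which primordial germ cells need to survive. Nanos3 had the lowest mean level of the regulators (2.80 CPM) and the lowest change, -0.77 (SE 0.37) in clone 10 and -0.74 (SE 0.35) in clone 4 within pairs. In 5 of 6 pairs GFP-positive cells were the lower ones, and it was not called. The highest change among the 4 was that of Brdt, 0.47 (SE 0.18) in clone 10.

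Of the synaptonemal complex genes, Sycp1 rose and the other 5 were not called by edgeR. Sycp1 (ENSMUSG00000027855, mm10 chromosome 3, 102818499 to 102936100, minus strand) encodes the transverse filament that joins paired chromosomes. It measured 38.5, 31.9 and 25.9 CPM in GFP-positive and 7.02, 17.6 and 7.69 CPM in GFP-negative cells of clone 10. Clone 4 gave 43.6, 33.1 and 34.4 CPM in GFP-positive and 24.8, 21.8 and 12.6 CPM in GFP-negative cells. Every GFP-positive library lay above every GFP-negative library, in both clones. The log2 change within pairs was 1.54 (SE 0.27, adjusted p = 0.0192) in clone 10, 0.97 (SE 0.26) in clone 4 and 1.25 (SE 0.19, adjusted p = 0.0116) over both. Without the pairing it was 1.45 (SE 0.37) in clone 10 and 0.92 (SE 0.37) in clone 4, while over both clones it was 1.19 (SE 0.26, adjusted p = 0.095), the smallest adjusted p of the germline genes in that comparison.

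Sycp2 and Sycp3 form the lateral elements of the complex, Syce1 and Syce2 its central element, and Hormad1 marks the unpaired axis. Syce2, the highest of the 6 genes by mean CPM (69.4), measured 44.3, 44.6 and 35.5 CPM in GFP-positive and 112, 58.2 and 50.5 CPM in GFP-negative cells of clone 10. It went the other way from Sycp1, with log2 changes within pairs of -0.86 (SE 0.24, adjusted p = 0.0851) in clone 10 and -0.28 (SE 0.24) in clone 4. Neither was called by edgeR, while DESeq2 with the replicate block called Syce2 lower in clone 10 and over both clones. Sycp2, the lowest by mean CPM (2.21), had the highest change of the 5 that edgeR did not call, 0.83 (SE 0.36) in clone 10 and 0.56 (SE 0.35) in clone 4. In single pairs of clone 10 its log2 difference was 2.208, 0.289 and 0.532. Replicate 1 thus had by far the largest, where the GFP-negative library held 5 counts. Syce2 overlaps Gcdh by 1829 bases on the other strand, and Sycp3 lies within Chpt1 on the other strand. Strand use in the counting is not stated, so reads of these partners cannot be told apart. Gcdh changed by 0.18 (SE 0.12) and Chpt1 by 0.086 (SE 0.15) in clone 10, neither called.

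Of the meiotic cohesins, Smc1b fell in clone 10 within pairs. Smc1b (ENSMUSG00000022432, mm10 chromosome 15, 85064691 to 85131957, minus strand), the meiotic form of an SMC subunit, fell to 5.23, 5.69 and 4.98 CPM in GFP-positive cells of clone 10, against 8.17, 9.78 and 7.06 CPM in GFP-negative ones. In clone 4 its level was 14.1, 18.98 and 5.55 CPM in GFP-positive and 9.30, 14.7 and 4.17 CPM in GFP-negative cells. It was lower in 3 of 3 pairs of clone 10, whose gates did not overlap, and higher in 3 of 3 pairs of clone 4, whose gates did. Within pairs the log2 change was -0.76 (SE 0.17, adjusted p = 0.0429) in clone 10 and 0.47 (SE 0.16) in clone 4. The call in clone 10 was lost in each of the 6 fits that left out a pair, at changes of -0.87 to -0.68 and adjusted p-values of 0.0616 to 0.142, and in the fit of clone 10 alone. The unpaired values were -0.78 (SE 0.47) in clone 10 and 0.46 (SE 0.47) in clone 4, neither called. Smc1b overlaps the processed pseudogene Gm10923 by 418 bases on the other strand. With no stated strand setting, reads from that stretch cannot be told apart. Rec8, the meiotic kleisin, and Stag3, its partner subunit, were not called, with changes within pairs of -0.042 (SE 0.15) and 0.32 (SE 0.18) in clone 10.

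The 4 recombination genes tested did not pass edgeR's test in either clone, while DESeq2 with the replicate block called Tex11 higher over both clones. Dmc1, the meiotic recombinase, Mei1, which acts in break formation, and Tex11 and Tex15, which act in the repair of the breaks, had changes within pairs from -0.67 (SE 0.35, Mei1) to 0.71 (SE 0.29, Tex15) in clone 10. In clone 4 they ran from 0.039 (SE 0.12, Dmc1) to 0.38 (SE 0.28, Tex15). The smallest adjusted p within pairs was 0.13 in clone 10 and 0.673 in clone 4. In single pairs of clone 10 the log2 difference of Tex15 was 1.72, 0.305 and 0.207, largest in replicate 1. Spo11, the enzyme that makes the breaks, was too low to test, with 0 counts in the 3 GFP-negative libraries of clone 10 and at most 7 counts elsewhere. A count of 0 allows up to 3 counts, 0.092 to 0.231 CPM in those libraries, a limit that covers counting error alone.

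All 10 genes of the piRNA pathway and transposon silencing had log2 changes above 0 within pairs in both clones, and 2 of them, Tdrkh and Tex19.1, rose in clone 10. Over all genes 49.0% of the changes in clone 10 and 50.8% in clone 4 were above 0. Tdrkh (ENSMUSG00000041912, mm10 chromosome 3, 94413296 to 94432633, plus strand), a Tudor domain protein that helps trim piRNAs, measured 20.7, 6.71 and 20.8 CPM in GFP-positive and 10.02, 3.68 and 9.50 CPM in GFP-negative cells of clone 10. For clone 4 the values were 21.4, 16.1 and 8.11 CPM in GFP-positive and 15.4, 11.1 and 10.4 CPM in GFP-negative cells. The gates overlapped in both clones, since clone 10 replicate 2 was low in both gates and clone 4 replicate 3 was lower in the GFP-positive library. The log2 change within pairs was 0.90 (SE 0.20, adjusted p = 0.0412) in clone 10 and 0.23 (SE 0.19) in clone 4. In the fit across all libraries it was 0.90 (SE 0.49) in clone 10 and 0.29 (SE 0.49) in clone 4. Oaz3, which overlaps Tdrkh by 2255 bases on the other strand, was at most 0.887 CPM. It changed by 1.07 (SE 0.455, adjusted p = 0.187) in clone 10 within pairs and was not called. Without a stated strand setting, reads of Tdrkh and Oaz3 cannot be told apart.

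Tex19.1 (ENSMUSG00000039329, mm10 chromosome 11, 121146143 to 121148319, plus strand), which restrains retrotransposons in mouse germ cells, was the highest of the 34 genes by mean CPM (178.8). It measured 267, 163 and 165 CPM in GFP-positive and 166, 99.3 and 78.9 CPM in GFP-negative cells of clone 10. In clone 4 it measured 282, 56.5 and 297 CPM in GFP-positive and 242, 50.01 and 278 CPM in GFP-negative cells. Clone 4 replicate 2 was low in both gates, and the gates of clone 10 overlapped by a narrow margin. Within pairs the log2 change was 0.70 (SE 0.14, adjusted p = 0.0268) in clone 10, 0.18 (SE 0.14) in clone 4 and 0.44 (SE 0.097, adjusted p = 0.047) over both, higher in 6 of 6 pairs. Across all libraries it was 0.62 (SE 0.67) in clone 10 and 0.17 (SE 0.66) in clone 4. Its paralog Tex19.2, which is no member of the 34, rose by 0.69 (SE 0.15, adjusted p = 0.0452) over both clones within pairs, and the counting could have split reads between the pair.

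The other 8 genes of this group were not called by edgeR. With the replicate block, DESeq2 called Mael, Mov10l1, Tdrd1 and Tdrd9 higher in clone 10. Over both clones it called Ddx4, Mael, Mov10l1, Stk31 and Tdrd9 higher. The 8 genes were Ddx4, the germ cell RNA helicase Vasa, the Piwi protein gene Piwil2, and the piRNA factors Mael, Mov10l1 and Asz1. The others were the Tudor domain genes Tdrd1 and Tdrd9, and Stk31, which also carries a Tudor domain. Changes of the 8 within pairs ran from 0.20 (SE 0.15, Piwil2) to 1.89 (SE 0.47, Tdrd9) in clone 10. In clone 4 they ran from 0.22 (SE 0.13, Mael) to 0.64 (SE 0.42, Asz1). The smallest adjusted p was 0.0606 in clone 10 and 0.35 in clone 4. Asz1 had the lowest mean level of the group, 0.887 CPM. Tdrd9 overlaps Rd3l by 2207 bases on the other strand, where reads cannot be told apart without a stated strand setting.

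Slc25a31, Rpl10l and Tex101 rose within pairs, and Tex14 did not pass the test. Slc25a31 (ENSMUSG00000069041, mm10 chromosome 3, 40708855 to 40725593, plus strand), the testis form of the mitochondrial ADP/ATP carrier, measured 21.98, 6.35 and 12.6 CPM in GFP-positive and 4.01, 3.07 and 3.96 CPM in GFP-negative cells of clone 10. The clone 4 values were 21.01, 7.84 and 5.17 CPM in GFP-positive and 13.3, 6.88 and 4.65 CPM in GFP-negative cells. The GFP-negative libraries of clone 10 lay close together and below all others, and the gates of clone 4 overlapped. The log2 change within pairs was 1.59 (SE 0.23, adjusted p = 0.00909) in clone 10, 0.36 (SE 0.22) in clone 4 and 0.98 (SE 0.16, adjusted p = 0.0176) over both, higher in 6 of 6 pairs. Without the pairing it was 1.75 (SE 0.58) in clone 10 and 0.44 (SE 0.56) in clone 4.

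Rpl10l (ENSMUSG00000060499, mm10 chromosome 12, 66283381 to 66284401, minus strand), a retrocopy of the X-linked ribosomal protein gene Rpl10 that takes its place in male meiosis, measured 88.4, 34.98 and 58.02 CPM in GFP-positive and 31.2, 21.1 and 19.5 CPM in GFP-negative cells of clone 10. Clone 4 gave 22.98, 12.9 and 12.6 CPM in GFP-positive and 20.97, 11.5 and 11.3 CPM in GFP-negative cells. GFP-positive libraries of clone 10 lay above all others, and the gates of clone 4 overlapped. Within pairs the log2 change was 1.15 (SE 0.17, adjusted p = 0.00948) in clone 10, 0.17 (SE 0.17) in clone 4 and 0.66 (SE 0.12, adjusted p = 0.026) over both. The unpaired values were 1.18 (SE 0.40) in clone 10 and 0.15 (SE 0.40) in clone 4. Rpl10 itself changed by 0.17 (SE 0.21) in clone 10 and was not called, and the value of Rpl10l is uncertain as far as reads of the parent gene could be given to the copy.

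Tex101 (ENSMUSG00000062773, mm10 chromosome 7, 24668012 to 24672050, minus strand), a germ cell surface protein, was low, at 2.98, 0.692 and 0.690 CPM in GFP-positive and 0.925, 0.368 and 0.191 CPM in GFP-negative cells of clone 10. In clone 4 its level was 11.3, 1.74 and 0.963 CPM in GFP-positive and 6.38, 1.09 and 0.607 CPM in GFP-negative cells. In 6 of 6 pairs GFP-positive cells were the higher ones, with replicate 1 the highest in each group. Its log2 change within pairs was 1.01 (SE 0.20, adjusted p = 0.0362) over both clones, 1.29 (SE 0.32) in clone 10 and 0.74 (SE 0.26) in clone 4. Only that over both clones was called by edgeR, while DESeq2 with the replicate block also called it in clone 10. In the fit across all libraries it was 1.43 (SE 1.16) in clone 10 and 0.75 (SE 1.06) in clone 4. Tex14, which keeps the bridges between germ cells open, changed by -0.22 (SE 0.15) in clone 10 and 0.22 (SE 0.15) in clone 4 within pairs.

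**Figure D5:**
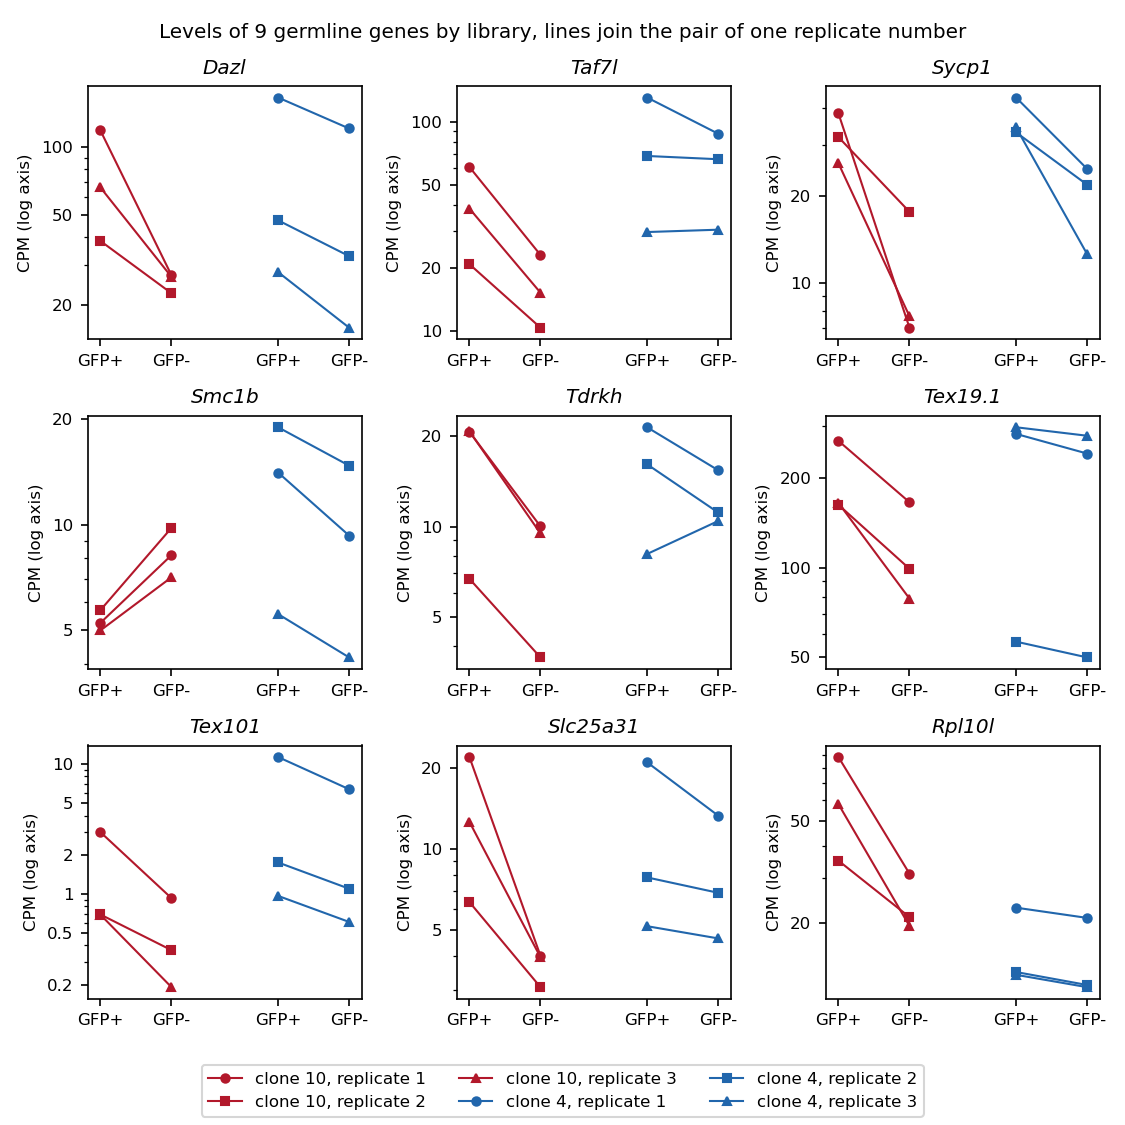
CPM on a log axis of the 9 germline genes called by edgeR in any comparison. GFP-positive cells stand left of GFP-negative cells, with clone 10 in red and clone 4 in blue. Each line joins the libraries of the same replicate number. Lines of clone 10 run down toward GFP-negative cells in each panel except that of Smc1b, where they run up. Lines of clone 4 run down except those of replicate 3 for Tdrkh and Taf7l.

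The size of the GFP change was compared between the clones by the difference of the log2 changes, clone 10 minus clone 4. The test called 0 of 33 germline genes across all libraries and 0 within pairs, where 0% of all genes were called in either fit. At an unadjusted p under 0.05 there were 0 and 7 germline genes, beside 140 and 1167 of all genes. Within pairs the differences of the named genes were -1.23 (SE 0.24, adjusted p = 0.5) for Smc1b, 1.24 (SE 0.32) for Slc25a31, 0.98 (SE 0.24) for Rpl10l and 0.91 (SE 0.20) for Taf7l. DESeq2 with the replicate block called 2, Smc1b and Taf7l, where it called 0.441% of all genes. That more germline genes were called in clone 10 than in clone 4 is therefore not shown by edgeR to be a difference between the clones for any single gene.

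Levels of germline genes were also compared between the clones within a gate, where no pairing of libraries could be made. Among GFP-positive cells, Rpl10l was higher in clone 10 than in clone 4, by 1.93 (SE 0.41, adjusted p = 0.0476), the 1 call among 33 genes beside 1.11% of all genes called. It lost the call without any one of 8 of the 12 libraries, clone 10 GFP-positive replicates 1 and 3, clone 10 GFP-negative replicates 2 and 3, clone 4 GFP-positive replicates 2 and 3, and clone 4 GFP-negative replicates 2 and 3, at adjusted p-values of 0.0519 to 0.214. Among GFP-negative cells 0 of 33 were called, beside 0.0461% of all genes, and 7 (21.2%) had an unadjusted p under 0.05, against 11.9% of all genes. There, 4 of the 33 changes were above 0 with a median of -0.61, against a median of 0.044 over all genes. Other meiosis and piRNA genes were lower there too, with 37% and 21.4% of changes above 0 and medians of -0.384 and -0.494. Among GFP-positive cells 8 of 33 were above 0 with a median of -0.35, against 49.6% and a median of -0.0039 over all genes. For other meiosis and piRNA genes 33.3% and 28.6% were above 0, with medians of -0.425 and -0.422. Labelled passage differed between the clones, at 17 to 20 in clone 10 replicates 2 and 3 and at most 16 in clone 4. With passage as a covariate, 7 of 33 were above 0 among GFP-negative cells (median -0.42) and 11 among GFP-positive cells (median -0.14). The part of passage in these differences was not tested further. DESeq2 called Stag3 and Tex11 lower in clone 10 among GFP-negative cells, where it called 2.47% of all genes. Among GFP-positive cells, where it called 5.25%, it called Stag3, Tex11, Tex14 and Mei1 lower and Rpl10l higher.

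Germline genes outside the 34 were counted in the same fits. Of 27 other meiosis genes tested, 0 were called over both clones within pairs. At an unadjusted p under 0.05 there were 3 (11.1%, against 26.3% of all genes). The 1 called in clone 10 was Prdm9, a histone methyltransferase that places recombination sites, at 1.29 (SE 0.30, adjusted p = 0.0491). The median change of the 27 over both clones was 0.031, against 0.40 for the 33 and 0.0031 for all genes. Of 14 other piRNA genes, Tex19.2 was the 1 that rose over both clones, 8 (57.1%) had changes above 0, and the median was 0.053 over both and 0.021 in clone 10. Of 18 genes of germ cell specification and early germ cells, 1 rose, Nanos1, an RNA-binding partner of Pumilio, at 0.50 (SE 0.10, adjusted p = 0.0413), and 1 fell, the interferon-inducible membrane protein gene Ifitm1, at -0.94 (SE 0.21, adjusted p = 0.0482).

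Genes that encode known repressors of the germ line did not pass the test. The 23 tested included E2f6, Mga, Max, Pcgf6, Setdb1 and the DNA methyltransferases. Within pairs edgeR called 0 of them over both clones, in clone 10 or in clone 4. At an unadjusted p under 0.05 there were 1, 4 and 2 (4.35%, 17.4% and 8.7%), against 26.3%, 25.2% and 7.42% of all genes. Their median change was -0.032 over both clones, -0.14 in clone 10 and 0.048 in clone 4. Changes above 0 numbered 6 of 23 in clone 10 (26.1%, against 49% of all genes) and 16 of 23 in clone 4 (69.6%, against 50.8%). Of 12 embryonic stem cell markers, 1 fell in clone 10, Lin28a, at -1.04 (SE 0.17, adjusted p = 0.0143), and the median there was -0.43. Of 17 genes of the 2-cell-like state, 15 rose over both clones within pairs, 17 in clone 10 and 4 in clone 4, with a median of 3.63 over both. By smallest p they were led by Zscan4c at 3.62 (SE 0.25) and Zscan4d at 3.73 (SE 0.27). Of 18 fibroblast markers 5 fell over both clones, led by Postn at -1.58 (SE 0.19), and of 13 lineage markers 0 were called over both clones and 2 rose in clone 10, Krt8 and Sox17.

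The authors' deposited table for clone 10 listed 418 genes at an adjusted p under 0.05, 2.7% of those with a value, and 3 of the 34 germline genes were among them. These were Slc25a31 with the authors' log2 fold change of 1.31 (SE 0.36, adjusted p = 0.0146), Tdrd9 with 1.38 (SE 0.40, adjusted p = 0.0233) and Sycp1 with 1.12 (SE 0.35, adjusted p = 0.0475). Dazl stood just outside in the authors' deposited table, with 1.10 (SE 0.34, adjusted p = 0.0505). The authors' deposited table for clone 4 listed 8 genes and 0 germline genes, with Sycp1 at 0.72 (SE 0.26, adjusted p = 1). Slc25a31 and Sycp1 were also called within pairs in clone 10 by edgeR, and Tdrd9 was not, at 1.89 (SE 0.47, adjusted p = 0.0606). Without the pairing, edgeR called 0 germline genes in clone 10, and DESeq2 called Sycp1 alone. The authors' tables are per clone, while these fits used all 12 libraries.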

How the data were processed

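Total RNA of the 12 libraries was prepared with a TruSeq v2 kit, per the labels. The submitters' processing notes name the mm10 build, HTSeq 0.6.0, STAR 2.3.0e and the DESeq and DESeq2 packages; no annotation release or strand setting is given in the sources used here. The authors deposited raw counts per gene, and a table per clone which, per the file headers, holds the counts, a signal (counts divided by a size factor), a log2 fold change with its error, a score (fold change over error) and p-values.

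The deposited counts entered edgeR's robust quasi-likelihood F test (edgeR 4.0.16 with limma 3.58.1, R 4.3.3) after TMM normalization. The default expression filter (minimum count 10, in at least 3 libraries, minimum total 15) kept 15179 genes and left out 7574, Spo11 among them. The planned main fit had a term per group over all 12 libraries, with 8 residual degrees of freedom. Its p-values, like those of the other fits, were adjusted by Benjamini-Hochberg over all genes tested. Adjusted p-values are those of edgeR unless DESeq2 or the authors are named. A second fit, planned as an alternative, added the pair (clone and replicate number) as a replicate block, leaving 4 residual degrees of freedom. Within pairs means from this fit. The pairing rests on the shared replicate numbers. After removal of group means, the 6 pairs sharing clone and number correlated at 0.548 to 0.822. Libraries of the same clone, opposite gates and different numbers correlated at -0.541 to -0.228. Removing the mean of 3 libraries pushes these below 0 when the pairs lie above it, so part of the contrast is built in. The biological coefficient of variation was 0.389 without and 0.175 with the block. No groupmates differed by as little as sampling noise. RPKM divides CPM by the exon length of GENCODE M21. Log2 differences of single pairs used effective library sizes and a prior count of 2. Counts simulated with the spread estimated here were put through both fits for the mean of both clones only. The outcome is not given here, and calls in single clones were not tried this way.

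The 34 genes and all other lists were chosen with earlier results of these data known. Genes given in full were those called in any comparison in either fit; others were to be singled out as highest or lowest of their role by mean CPM, and from other lists up to 4 called genes by smallest p over both clones. Ends of a range of changes, Prdm9, Lin28a, Krt8 and Sox17 were named after their values were seen. Alternatives were DESeq2 1.42.0, relative-log-expression scaling, no filter, passage as a covariate, single clones, and each library or pair left out. Promoter windows and sequences are RefSeq's (GRCm38.p6), matched by symbol. Gene coordinates are the authors'.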

Additional observations from a re-analysis of the deposited data

Results flagged for a closer look

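Smc1b, the meiotic cohesin subunit gene, was singled out because its GFP change had opposite directions in the clones. GFP-positive cells were lower in 3 of 3 pairs of clone 10 and higher in 3 of 3 pairs of clone 4. The difference of the log2 changes within pairs, clone 10 minus clone 4, was -1.23 (SE 0.24), with an adjusted p = 0.5 by edgeR, so it was not called by that test, while DESeq2 with the replicate block called it. Within pairs the changes were -0.76 (SE 0.17) in clone 10 and 0.47 (SE 0.16) in clone 4. The groups hold 3 libraries each, too few to examine single libraries as outliers.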

How the results depend on the processing

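The replicate block decided most calls: 8 germline genes in clone 10 (7 higher) and 7 over both clones were called within pairs, and 0 and 0 without it. Without the block, DESeq2 called 1 in clone 10 and 1 over both clones, 2 between GFP-negative cells of clone 10 and clone 4, and 5 between GFP-positive cells, where passage as a covariate gave 2 and leaving out single libraries 0 to 1. With the block, DESeq2 called 1 in clone 4, 14 in clone 10, 15 over both clones and 2 for the difference of the clones. Of all genes it called 1.19%, 10.1%, 9.41% and 0.441% there. In the 4 comparisons named without the block it called 1.69%, 1.7%, 2.47% and 5.25% of all genes. Fitted alone within pairs, clone 4 gave 1 (Sycp1) and clone 10 gave 2 (Slc25a31 and Taf7l). Leaving out single pairs gave 0 to 7 calls in clone 10 and 0 to 10 over both clones (0 in both without clone 10 replicate 3, and 0 over both without clone 4 replicate 1). For single clones, passage and left-out libraries or pairs, the share of all genes called is not given here. Those counts are therefore no result about the germline genes alone. Over all alternatives and comparisons, counts of all genes moved in 68 cases, by more than 1.5 times or from 0, and stayed in 70. Relative-log-expression scaling and no filter kept the counts within 1.5 times, and moved the median of all genes by less than 0.1. The cause of these shifts was not tested.

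Among 700 recomputed log2 changes of the 9 named genes, 11 changed sign, all of them changes in clone 4 across all libraries when 1 library of clone 4 was left out. Without GFP-positive replicate 1, the change became -0.57 for Dazl, -0.30 for Taf7l, -0.0077 for Tdrkh, -0.030 for Tex19.1, -0.99 for Tex101, -0.32 for Slc25a31 and -0.15 for Rpl10l. Without GFP-negative replicate 3 it became -0.018 for Taf7l. Without GFP-negative replicate 2 it became -0.29 for Tex19.1 and -0.016 for Rpl10l, and without GFP-positive replicate 3 -0.21 for Tex19.1. The highest values over single libraries left out were 1.74 for Dazl, 0.67 for Taf7l, 0.58 for Tdrkh, 0.63 for Tex19.1, 2.45 for Tex101, 0.98 for Slc25a31 and 0.52 for Rpl10l. Depth limits what can be seen of genes with few counts, such as Spo11.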
